A study of Mus musculus with 12 samples.

Results

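TRAMP-C2 tumors injected with both agents of the study, ADU-S100 and cyto-IL-15 (the combination), were set against TRAMP-C2 tumors injected with the vehicle HBSS. The treatment label put 3 tumors in the combination group (titled 20L, 22 and 28LL) and 3 tumors in the HBSS group (19, 22R and 22LL), which is 6 of the 12 tumors sequenced. The other 6 tumors received ADU-S100 alone or cyto-IL-15 alone and are used here only to show where the combination differed from either agent. TRAMP-C2 is a prostate epithelial cancer line from a transgenic mouse. It was grown under the skin of the right flank of male C57BL/6J mice aged 6 to 8 weeks after injection of 5000000 cells, so each sample holds tumor cells of 1 line together with the host cells that entered or surrounded the tumor. At a volume of about 200 mm3 the combination tumors were injected with 50 µg ADU-S100 on days 0, 2 and 4 and with 10 µg cyto-IL-15 on days 0 and 4, and HBSS tumors received 50 µl of vehicle. Each sample is RNA of dissociated tumor tissue taken on day 6. The paper states that collected tumors were cut into parts, and which part was sequenced was not given in the sources used here. Total counts were 66085574 to 72939679 (median 68837827) in the combination group and 61269250 to 89374663 (median 75857377) in the HBSS group. Levels of single genes are given as counts per 1000000 (CPM) after trimmed-mean scaling of library sizes, in the order of tumors 20L, 22 and 28LL for the combination and 19, 22R and 22LL for HBSS.

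ADU-S100 is a cyclic dinucleotide that activates STING, an adaptor protein that reports cytosolic DNA. Active STING engages the kinase TBK1 and the transcription factor IRF3, which switch on type I interferon, and interferon in turn drives a large set of antiviral and antigen presentation genes in neighboring cells. Interleukin-15 acts through the receptor chains IL-2Rβ and the common γ chain, on which natural killer (NK) cells and memory-type CD8+ T cells depend, and cyto-IL-15 is a derivative that attaches to cell membranes. Granzymes and perforin are the granule proteins with which NK cells and CD8+ T cells kill their targets.

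Calls required an adjusted p under 0.05 together with a log2 fold change above 1 in size. Of 49315 genes in the files, 18565 passed the filter on low counts and were tested with the quasi-likelihood test of edgeR, which called 0 of them (0.0%). The smallest adjusted p of edgeR was 0.185, and 2043 genes (11.0%) at higher and 1331 genes (7.17%) at lower levels in combination tumors had an unadjusted edgeR p under 0.05. The Wald test of DESeq2 on the same 6 tumors called 934 genes higher and 222 genes lower. The 1156 genes so called became 2193 without combination tumor 20L, and 738, 637 and 700 without HBSS tumor 19, 22R and 22LL in turn. Among the genes that edgeR tested, DESeq2 called 813 (4.38%) higher and 187 (1.01%) lower. The lowest combination tumor was above the highest HBSS tumor in 2578 tested genes (13.9%), and the highest combination tumor was below the lowest HBSS tumor in 3048 (16.4%). Genes of either kind are said to be without overlap between the groups. The shares in this paragraph are those of all tested genes, and the counts of each gene list are to be read against them. The median log2 fold change over all tested genes was 0.01. The p-values measure the spread between 3 tumors of each group, which the labels title separately without saying that each came from a mouse of its own.

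Combination tumor 28LL stood apart from the other 5 tumors. Across genes, its log2 levels correlated at 0.909 to 0.957 with those of the other tumors, whereas every other pair of tumors correlated at 0.975 to 0.993. Of the 2578 genes with all combination tumors above all HBSS tumors, 1968 were highest in 28LL, 381 in tumor 22 and 229 in tumor 20L. Tumor 28LL was also the highest of the combination tumors in the mean level of 36 of 40 gene lists. Without 28LL the biological coefficient of variation, the relative spread between tumors of a group, was 0.246, against 0.387 with it. In that comparison of 2 combination tumors with 3 HBSS tumors, edgeR called 184 of 19000 genes (0.968%) higher and 63 (0.332%) lower, and 212 of these 247 genes were also called by DESeq2 on all 6 tumors. No value in the labels sets tumor 28LL apart from tumors 20L and 22.

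The labelled tissue was checked against defining markers, listed with their values known. Krt8, a keratin of simple epithelia, was measured at 2.15, 4.45 and 7.66 CPM in combination tumors and 6.38, 6.84 and 145 CPM in HBSS tumors. Its partner Krt18 stayed under 1 CPM in all 6 tumors. The epithelial keratins were thus near 0 in most tumors of both groups, whereas Vim, the intermediate filament of mesenchymal cells, was at 3037, 2536 and 1909 CPM in combination tumors and 2406, 2839 and 2908 CPM in HBSS tumors. Skeletal muscle RNA moved with the groups: 26 of 29 tested muscle fiber genes lay higher in every combination tumor than in every HBSS tumor, and the list took up 0.0172, 0.147 and 0.778 percent of the counts in combination tumors, against 0.00668, 0.00936 and 0.0102 percent in HBSS tumors. Some fiber genes near 0 in HBSS tumors passed the filter on low counts through combination tumors, so the count of 26 leans toward higher levels. The part of muscle RNA in the other results was not tested. In RNA of tumor tissue, more cells of a type and more RNA per cell cannot be told apart, nor can fewer cells and less RNA per cell.

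The genes that edgeR ranked first by p, where their mean was 1 CPM or more, are described here. Cxcl11 had the smallest p of the genes at higher levels. Where the gene is intact, its chemokine draws activated T cells and NK cells through the receptor CXCR3. It was measured at 6.89, 10.8 and 15.7 CPM in combination tumors, against 1.18, 1.48 and 1.31 CPM in HBSS tumors, a log2 fold change of 3.10 ± 0.37 (SE) with an edgeR adjusted p of 0.185. The combination tumors rose in the order 20L, 22 and 28LL, and all lay far above the HBSS tumors. DESeq2 gave an adjusted p of 5.91e-13, and edgeR without tumor 28LL gave 0.0112. The annotation (GENCODE M21) places Cxcl11 on chromosome 5 from 92359544 to 92365485 of GRCm38. It lists the gene as a polymorphic pseudogene, which is disabled in some strains and intact in others. Whether the Cxcl11 RNA of these tumors gave a working protein was not tested. Itgax, which codes for the integrin CD11c of dendritic cells and some macrophages, was at 54.1, 71.7 and 49.8 CPM in combination tumors, against 23.01, 19.9 and 24.4 CPM in HBSS tumors (1.41 ± 0.18, SE, on the log2 scale). Ch25h, the enzyme that makes the antiviral oxysterol 25-hydroxycholesterol, was at 19.5, 29.3 and 33.0 CPM in combination tumors, against 5.22, 5.98 and 8.43 CPM in HBSS tumors (2.08 ± 0.29, SE). In both genes the groups were well apart and tumor 28LL was close to the other combination tumors. Apol9b and Apol9a, near-identical apolipoprotein L genes whose reads may be split between them, had log2 fold changes of 1.56 ± 0.20 and 1.17 ± 0.16 (SE), without overlap between the groups. Chil3, the chitinase-like protein of alternatively activated and inflammatory macrophages, spread more widely, at 22.1, 57.3 and 134 CPM in combination tumors, against 1.46, 1.63 and 2.04 CPM in HBSS tumors (5.40 ± 0.72, SE). Ccl1, a chemokine of activated T cells and mast cells, was at 1.19, 2.87 and 2.63 CPM in combination tumors, against 0.36, 0.258 and 0.352 CPM in HBSS tumors (2.80 ± 0.44, SE). Even the lowest combination tumor, 20L, lay above every HBSS tumor in both.

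**Figure D1:**
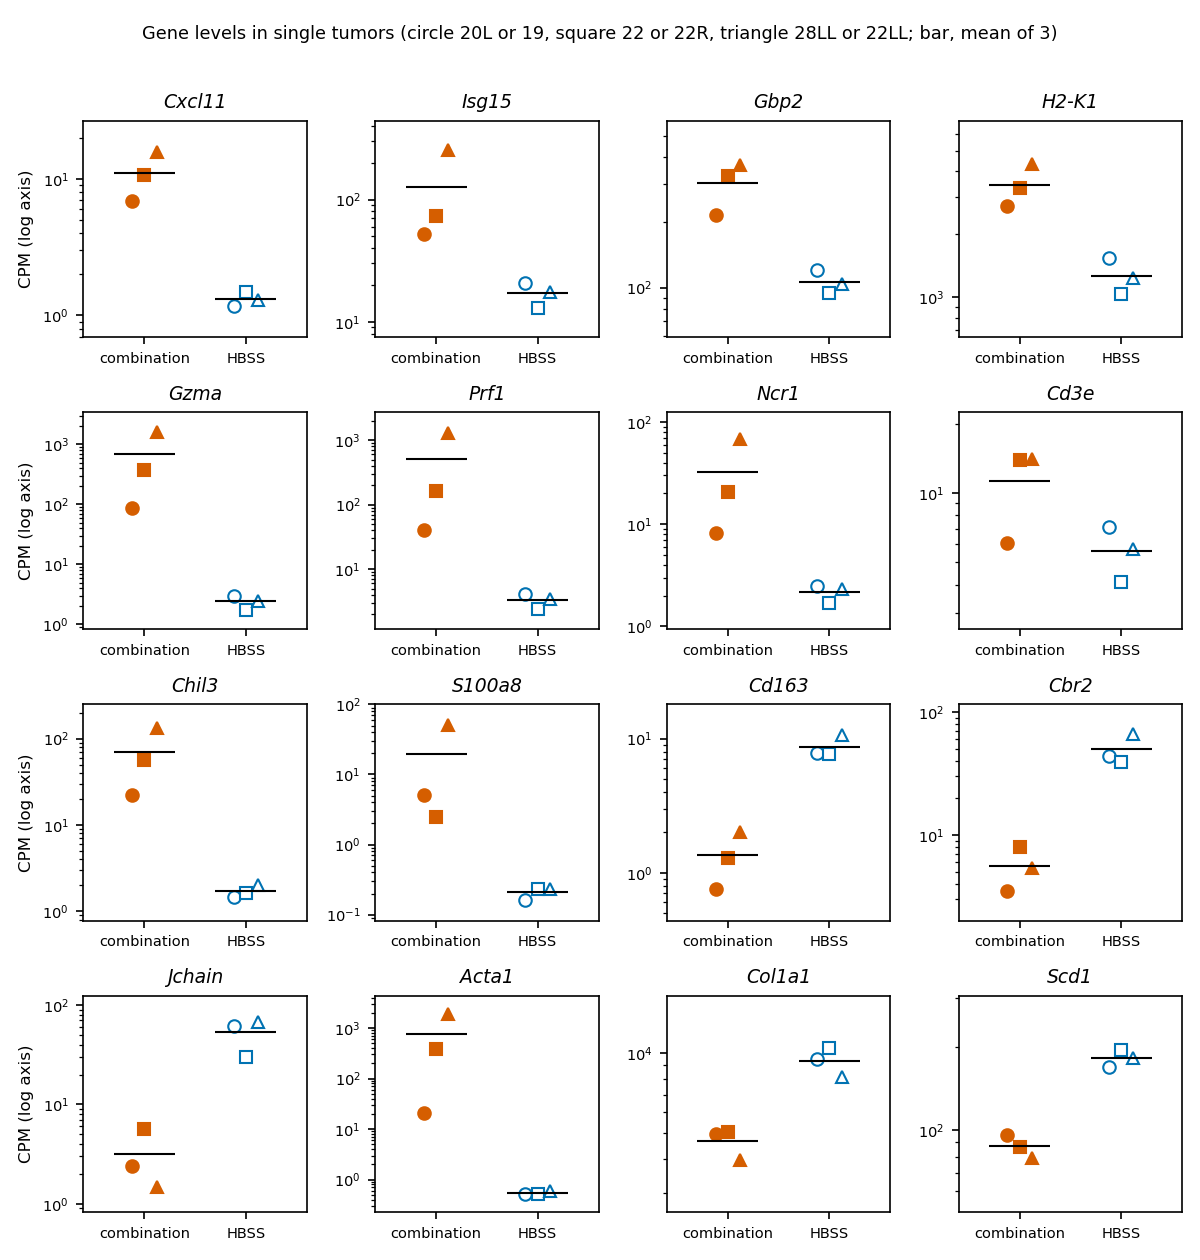
Levels of 16 genes in single tumors, in CPM on a log axis, with combination tumors (filled) left of HBSS tumors (open) in each panel and a bar at the mean of 3 tumors. The groups do not overlap in 15 panels, and only in Cd3e does combination tumor 20L, at 6.08 CPM, fall within the HBSS range of 4.09 to 7.09 CPM.

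Of the genes at lower levels, Zbtb20, a zinc finger repressor of transcription, had the smallest edgeR p, which was 0.185 after adjustment. It was measured at 45.0, 47.5 and 42.1 CPM in combination tumors, against 104, 98.7 and 87.1 CPM in HBSS tumors, a log2 fold change of -1.08 ± 0.12 (SE). Afap1l2, an adaptor protein bound to actin filaments, was at 9.48, 12.2 and 8.64 CPM in combination tumors, against 38.4, 28.5 and 38.9 CPM in HBSS tumors (-1.78 ± 0.21, SE). Scd1, the desaturase that makes monounsaturated fatty acids, was at 95.9, 86.6 and 78.8 CPM in combination tumors, against 169, 195 and 182 CPM in HBSS tumors (-1.03 ± 0.13, SE). In these 3 genes the combination tumors fell into a narrow band below all HBSS tumors, and tumor 28LL did not stand apart. Hpgd, which inactivates prostaglandins, was at 4.81, 7.92 and 5.57 CPM in combination tumors, against 21.8, 19.7 and 16.7 CPM in HBSS tumors (-1.65 ± 0.24, SE). Cd209a, a lectin of dendritic cells derived from monocytes, was at 0.103, 0.0583 and 0.138 CPM in combination tumors, against 3.40, 1.20 and 2.32 CPM in HBSS tumors (-4.48 ± 0.58, SE). Both were below every HBSS tumor in every combination tumor. The same was true of Stard9 (-0.89), Gab1 (-0.90), Zfp871 (-1.30) and Reps2 (-1.93), with the log2 fold change in brackets. DESeq2 called all of the genes named in this paragraph except Stard9 and Gab1, whose fold changes were under the threshold.

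Interferon-stimulated genes were at higher levels in combination tumors. Of 42 tested genes, 42 had a positive log2 fold change, 35 lay higher in every combination tumor than in every HBSS tumor, and DESeq2 called 26 higher and 0 lower. Their median log2 fold change was 1.74, and 1.00 without tumor 28LL, when edgeR called 10 of them higher. The mean level of the list on the log2(CPM + 0.5) scale was 5.52, 6.13 and 7.47 in combination tumors, against 5.04, 4.56 and 4.99 in HBSS tumors. Bst2, which tethers budding virus to the cell surface, ranked first in the list by edgeR p and was at 306, 394 and 467 CPM in combination tumors, against 179, 124 and 148 CPM in HBSS tumors. Rtp4, an interferon-inducible chaperone of receptors, was at 66.4, 101 and 180.1 CPM in combination tumors, against 30.4, 19.9 and 26.1 CPM in HBSS tumors (2.21 ± 0.39, SE). Both genes rank the combination tumors 20L, 22 and 28LL from low to high, and the lowest of them was still above all HBSS tumors. Ifi44 was at 28.2, 42.1 and 94.6 CPM in combination tumors, against 13.5, 7.08 and 10.8 CPM in HBSS tumors (2.42 ± 0.51, SE). Xaf1, an antagonist of the apoptosis inhibitor XIAP, was at 35.5, 52.8 and 97.4 CPM in combination tumors, against 20.8, 16.6 and 19.2 CPM in HBSS tumors (1.74 ± 0.38, SE). DESeq2 gave Ifi44 an adjusted p of 0.000162 and Xaf1 one of 0.00135. The ubiquitin-like modifier Isg15 and the RNA-binding protein Ifit1 were added after their values were seen, as textbook members of the list. Isg15 was at 52.0, 73.3 and 254 CPM in combination tumors, against 20.9, 12.9 and 17.4 CPM in HBSS tumors, and Ifit1 was at 24.8, 37.8 and 160.3 CPM in combination tumors, against 14.6, 12.8 and 15.3 CPM in HBSS tumors. In both, tumor 28LL was several times higher than the other combination tumors. Eif2ak2, the kinase PKR that halts translation, also named after its values were seen, had the smallest change of the list, at 74.7, 87.3 and 105 CPM in combination tumors and 77.5, 83.7 and 78.2 CPM in HBSS tumors, and its groups overlapped.

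The promoters of 4 genes are shown because interferon-regulated promoters are known for repeats of the letters GAAA, to which interferon regulatory factors bind. Each is the 250 bases before the start site of the RefSeq transcript on GRCm38.p6, read 5′ to 3′ on the strand of the gene: Isg15 at chr4:156200819-156201068 (minus strand), Ifit1 at chr19:34640639-34640888 (plus strand), Gbp2 at chr3:142620413-142620662 (plus strand) and Cxcl10 at chr5:92348890-92349139 (minus strand). Capitals mark matches to the motif searched, 2 copies of GAAA with 2 bases of any kind between them, or for the other strand 2 copies of TTTC with 2 bases between them, where matches may overlap.
Isg15: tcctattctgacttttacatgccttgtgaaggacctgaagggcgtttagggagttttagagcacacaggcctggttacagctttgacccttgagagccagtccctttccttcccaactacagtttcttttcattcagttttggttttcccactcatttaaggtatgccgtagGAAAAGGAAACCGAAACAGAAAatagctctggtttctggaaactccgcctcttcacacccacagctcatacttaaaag
Ifit1: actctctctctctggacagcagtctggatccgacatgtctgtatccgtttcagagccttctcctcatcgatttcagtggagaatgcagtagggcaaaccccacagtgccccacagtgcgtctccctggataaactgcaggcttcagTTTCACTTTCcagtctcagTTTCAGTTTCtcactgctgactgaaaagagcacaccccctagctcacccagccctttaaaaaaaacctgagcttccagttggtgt
Gbp2: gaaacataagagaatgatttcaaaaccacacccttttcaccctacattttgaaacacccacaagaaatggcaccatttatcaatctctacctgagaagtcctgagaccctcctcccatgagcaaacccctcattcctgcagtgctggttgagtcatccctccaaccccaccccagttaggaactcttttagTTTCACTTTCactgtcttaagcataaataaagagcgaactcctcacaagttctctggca
Cxcl10: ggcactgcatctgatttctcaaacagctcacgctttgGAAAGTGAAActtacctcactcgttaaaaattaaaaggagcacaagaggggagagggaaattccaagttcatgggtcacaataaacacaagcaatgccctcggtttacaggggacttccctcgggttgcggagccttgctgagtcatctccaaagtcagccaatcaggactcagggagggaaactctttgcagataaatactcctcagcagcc
Isg15 held 3 matches, Ifit1 2, and Gbp2 and Cxcl10 1 each. Of all 27025 genes with a promoter of this length in the RefSeq table, 936 (3.46%) held a match. Of the interferon-stimulated list, 31 genes had a promoter in the table and 13 of them (41.9%) held a match, and of the interferon-γ-inducible GTPases 12 had a promoter and 10 (83.3%) held one. The share was 15.8% (3 of 19) for MHC class I genes, 20.0% (4 of 20) for cytotoxic granule genes and 3.57% (1 of 28) for NK cell genes, and 0 of 27 neutrophil genes and 0 of 25 muscle fiber genes held a match. Lists at lower levels in combination tumors held matches too: 2 of 8 plasma cell and immunoglobulin constant genes and 2 of 12 B cell genes. The count was 1 of 9 for MHC class II, 1 of 26 for resident-type macrophage and 1 of 16 for fibroblast and matrix genes. Of the pericyte genes, 0 of 13 held one. Matches were thus not confined to lists at higher levels. A match describes the letters of the window and not a bound site.

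The interferon-γ-inducible GTPases, which attack the vacuoles of intracellular pathogens, were at higher levels as well. Without overlap, 18 of 20 tested genes were higher in the combination, DESeq2 called 16 higher and 0 lower, and the median log2 fold change was 1.84 (1.37 without tumor 28LL). Gbp2 was at 216, 328 and 367 CPM in combination tumors, against 121, 94.6 and 104 CPM in HBSS tumors, a log2 fold change of 1.53 ± 0.23 (SE) with a DESeq2 adjusted p of 1.48e-05. Gbp3 was at 124, 174 and 258 CPM in combination tumors, against 62.9, 48.4 and 52.4 CPM in HBSS tumors (1.79 ± 0.29, SE). Irgm1, a regulator of autophagy, was at 112, 182 and 332 CPM in combination tumors, against 63.4, 47.9 and 60.2 CPM in HBSS tumors (1.90 ± 0.40, SE). All 3 showed the order 20L, 22, 28LL from low to high with no overlap between the groups. Gbp4 and Igtp had log2 fold changes of 2.41 ± 0.45 and 2.25 ± 0.45 (SE), also without overlap.

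The STING pathway list had a lower median than the interferon-stimulated list. Tmem173, the gene of STING, was added after its values were seen and was at 79.5, 107 and 126 CPM in combination tumors and 82.5, 75.8 and 84.7 CPM in HBSS tumors, with overlapping groups. Cgas, the DNA sensor upstream of STING, was at 31.1, 26.9 and 30.8 CPM in combination tumors, against 23.2, 23.4 and 20.6 CPM in HBSS tumors (0.43 ± 0.14, SE), without overlap but by less than the fold threshold. The interferon-inducible DNA-binding genes Ifi214, Ifi204, Ifi205, Ifi209 and Ifi213, the last added after its values were seen, were the 5 of 16 tested genes of the list that DESeq2 called higher. Ifi204 was at 76.7, 114 and 337 CPM in combination tumors, against 47.3, 39.4 and 54.4 CPM in HBSS tumors (1.93 ± 0.56, SE), highest in tumor 28LL. Over the list the median log2 fold change was 1.07, and 0.40 without that tumor. Of the interferons, Ifnb1 was too low to be tested. Ifng, the interferon of NK and T cells, was at 1.09, 3.35 and 10.4 CPM in combination tumors, against 0.475, 0.285 and 0.462 CPM in HBSS tumors, a log2 fold change of 3.63 ± 0.86 (SE) that DESeq2 called (adjusted p = 9.66e-05). The receptor genes Ifnar1 (-0.12 ± 0.16, SE), Ifnar2 (0.37 ± 0.25, SE), Ifngr1 (0.00 ± 0.16, SE) and Ifngr2 (0.17 ± 0.18, SE) (Ifngr1 named after its value was seen) were called neither by edgeR nor by DESeq2, and their groups overlapped.

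**Figure D2:**
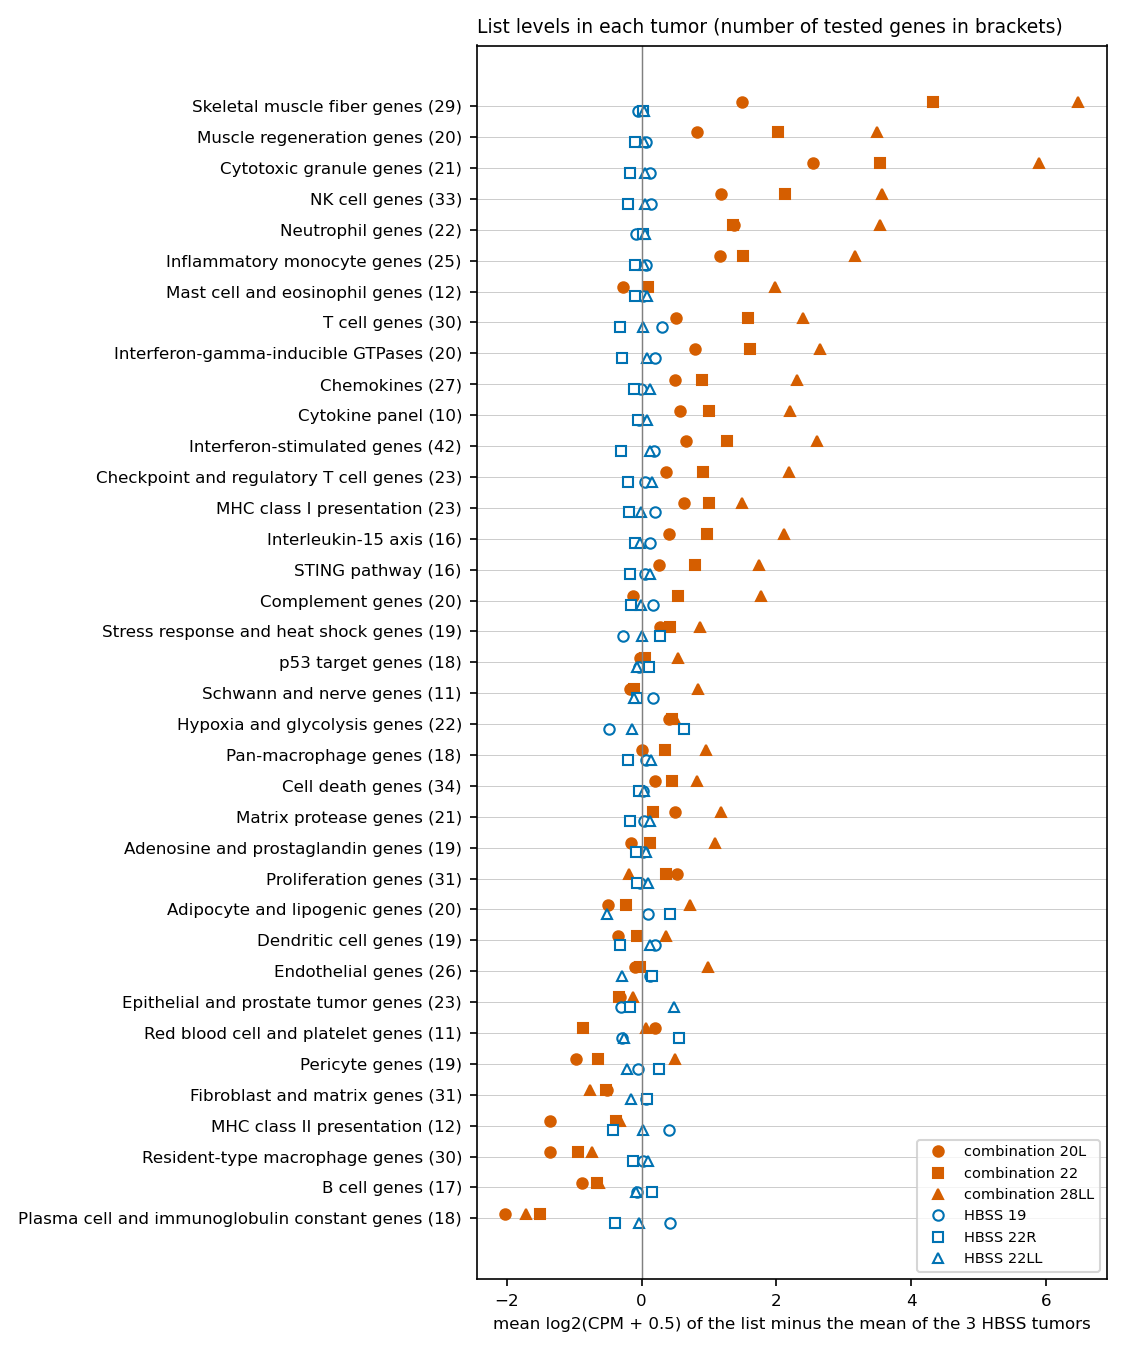
Mean log2(CPM + 0.5) of the tested genes of each list in single tumors, minus the mean of the 3 HBSS tumors, with 1 symbol per tumor and lists ordered by their median log2 fold change. Tumor 28LL is farthest to the right in the muscle, granule, NK cell, neutrophil and monocyte lists, where all combination tumors lie right of all HBSS tumors, and the plasma cell list lies farthest to the left.

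Chemokines and cytokines were compared next. Among 27 tested chemokine genes, 16 lay higher and 3 lower in all combination tumors than in all HBSS tumors, and DESeq2 called 13 higher and 0 lower, with a median log2 fold change of 1.81 (1.04 without tumor 28LL). Cxcl9, Cxcl10 and Cxcl11, the genes of the CXCR3 ligands, lie next to each other on chromosome 5, and Cxcl11 is the one listed as a polymorphic pseudogene. Cxcl10 was at 149.6, 265 and 308 CPM in combination tumors, against 70.0, 56.5 and 81.2 CPM in HBSS tumors (1.82 ± 0.30, SE), and Cxcl9 was at 184, 315 and 194 CPM in combination tumors, against 78.7, 38.8 and 75.6 CPM in HBSS tumors (1.87 ± 0.34, SE). Tumor 28LL was not above tumor 22 in Cxcl9. Ccl5, a chemokine that draws T cells and monocytes, was at 35.4, 37.4 and 69.4 CPM in combination tumors, against 17.6, 13.2 and 15.3 CPM in HBSS tumors, and edgeR without tumor 28LL called it (adjusted p = 0.0169), as it did Cxcl10 and Cxcl11. The neutrophil attractant Cxcl3 was read 3 times in the 3 HBSS tumors together and was at 3.53, 0.817 and 30.7 CPM in combination tumors, with tumor 22 well below the other combination tumors. Ccl2, the monocyte attractant, had a narrow difference without overlap, at 255, 352 and 234 CPM in combination tumors, against 155, 155 and 178 CPM in HBSS tumors (0.81 ± 0.18, SE), which neither tool called. Its DESeq2 adjusted p was 0.0194, and its fold change was under the threshold. Ccl17, a chemokine of T helper cells, was one of the 3 chemokines that lay below HBSS in every combination tumor, at 0.265, 0.364 and 0.51 CPM in combination tumors, against 1.26, 0.612 and 0.968 CPM in HBSS tumors, and was added after its values were seen. The 3 of 27 chemokines below are no larger a share than the 16.4% of all tested genes.

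Of a panel of 13 genes of cytokines and chemokines, 10 were tested, and Il12a, Csf2 and Ifnb1 were too low. DESeq2 called Cxcl10, Ccl5, Ifng and Tnf higher. Tnf was at 5.87, 10.8 and 25.6 CPM in combination tumors, against 3.72, 2.31 and 3.95 CPM in HBSS tumors (2.11 ± 0.58, SE). Il6 was at 0.677, 0.831 and 10.2 CPM in combination tumors, against 0.213, 0.666 and 0.242 CPM in HBSS tumors, and Il1b was at 7.62, 8.05 and 80.0 CPM in combination tumors and 7.14, 8.18 and 4.93 CPM in HBSS tumors. In Il6 and Il1b only tumor 28LL was clearly above the HBSS tumors. Il10 (1.71 ± 0.64, SE), Cxcl1 (1.18 ± 0.51, SE) and Il12b (-0.11 ± 0.49, SE) were not called, and Il12b, a subunit of interleukin-12, lay in the same range in both groups.

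All 16 tested genes of the interleukin-15 axis had a positive log2 fold change. Tbx21 and Eomes, the transcription factors of NK cells and cytotoxic T cells, and Il2rb, the β chain that binds interleukin-15, were called higher by DESeq2 with 6 of 16 tested genes in all. Il2rb was at 62.8, 153 and 683 CPM in combination tumors, against 26.6, 16.3 and 20.1 CPM in HBSS tumors (3.87 ± 0.91, SE). Tbx21 was at 5.55, 12.1 and 26.6 CPM in combination tumors, against 1.98, 1.63 and 1.87 CPM in HBSS tumors (3.04 ± 0.59, SE). The groups were separate in both, and Tbx21 was also called by edgeR without tumor 28LL (adjusted p = 0.0273). Il15 itself was at 6.46, 9.23 and 13.9 CPM in combination tumors and 5.97, 6.01 and 5.62 CPM in HBSS tumors (0.78 ± 0.31, SE), and Il15ra, which presents the cytokine, was at 10.8, 13.6 and 34.8 CPM in combination tumors and 10.4, 7.07 and 11.4 CPM in HBSS tumors (1.06 ± 0.48, SE). Neither was called, and tumor 20L was within or close to the HBSS range in both. The injected protein is not read by RNA sequencing. Over the list the median was 1.13 on the log2 scale, and 0.48 without tumor 28LL.

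Most MHC class I genes were at higher levels in every combination tumor. Of 23 tested genes of class I presentation, 18 lay higher in all combination tumors than in all HBSS tumors and none lower, DESeq2 called 12 higher, and edgeR without tumor 28LL called 9 higher. The median log2 fold change of 1.17 was 0.96 without that tumor. H2-K1, a classical class I heavy chain, was at 2717, 3301 and 4308 CPM in combination tumors, against 1531, 1036 and 1229 CPM in HBSS tumors (1.47 ± 0.24, SE). H2-D1, the other classical heavy chain of this mouse strain, was at 2662, 3277 and 4411 CPM in combination tumors, against 1542, 1119 and 1327 CPM in HBSS tumors (1.40 ± 0.24, SE). The light chain B2m was at 1746, 2081 and 2784 CPM in combination tumors, against 1054, 899 and 1034 CPM in HBSS tumors (1.17 ± 0.21, SE). In all 3 genes the lowest combination tumor was well above the highest HBSS tumor. Psmb8, a subunit of the immunoproteasome that cuts peptides for class I, was at 261, 335 and 417 CPM in combination tumors, against 171, 137 and 139 CPM in HBSS tumors (1.21 ± 0.21, SE). H2-Q4 ranked first in the list by edgeR p, at 534, 618 and 736 CPM in combination tumors, against 272, 205 and 223 CPM in HBSS tumors, although reads may be shared among the H2-Q and H2-T genes.

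MHC class II genes had a negative median log2 fold change of -0.86 over 12 tested genes (-1.11 without tumor 28LL). H2-Aa, an α chain of class II, was at 101, 313 and 253 CPM in combination tumors, against 764, 338 and 518 CPM in HBSS tumors, and the invariant chain Cd74 was at 334, 1014 and 817 CPM in combination tumors and 2271, 991 and 1535 CPM in HBSS tumors. Tumor 20L was lowest in both, the HBSS tumors themselves spread more than 2-fold, and in Cd74 the groups overlapped. Only H2-Ob, a chain of the peptide-loading inhibitor H2-O, was called lower by DESeq2, at 1.501, 2.03 and 1.75 CPM in combination tumors, against 4.17, 4.45 and 4.60 CPM in HBSS tumors (-1.30 ± 0.26, SE). Ctss, the protease that degrades the invariant chain, ran against the list, at 593, 927 and 1592 CPM in combination tumors and 630.3, 411 and 541 CPM in HBSS tumors. Of 19 tested dendritic cell genes, 2 lay above and 3 below in all combination tumors, shares near the 13.9% and 16.4% of all tested genes. Itgax and Cd209a, described above, were those that DESeq2 called, and the list median was 0.19 with tumor 28LL and -0.28 without it.

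Cytotoxic granule genes had the highest median log2 fold change of the immune lists. Of 21 tested genes, 18 lay higher in every combination tumor, none lower, and DESeq2 called 13 higher, while edgeR without tumor 28LL called 9. That median was 3.69, and 2.45 without that tumor. Members near 0 in HBSS tumors, such as Gzmd and Gzmf, passed the filter on low counts through combination tumors. The counts and the median of the list therefore lean toward higher levels. The list took up 0.209, 0.306 and 1.83 percent of all counts in combination tumors, against 0.126, 0.126 and 0.133 percent in HBSS tumors. Gzma, a granzyme that cleaves after basic residues, lies on chromosome 13 at 113093825 to 113100981 of GRCm38. It was at 87.5, 374 and 1618 CPM in combination tumors, against 3.03, 1.77 and 2.48 CPM in HBSS tumors (8.19 ± 1.26, SE). Gzmb, which starts apoptosis by cleaving after aspartate, was at 60.3, 307 and 2313 CPM in combination tumors, against 2.78, 2.46 and 4.12 CPM in HBSS tumors (8.19 ± 1.55, SE). The combination tumors differed among themselves by more than 10-fold in both genes, yet tumor 20L, the lowest, was more than 10-fold above every HBSS tumor. Prf1, the pore-forming perforin, was at 40.9, 160.0 and 1306 CPM in combination tumors, against 4.19, 2.42 and 3.48 CPM in HBSS tumors (7.26 ± 1.46, SE). DESeq2 gave adjusted p-values of 9.15e-19 for Gzma, 1.3e-13 for Gzmb and 4.99e-11 for Prf1, and edgeR without tumor 28LL gave 0.0493, 0.0631 and 0.0573 for the same genes, of which only Gzma passed. The muscle fiber list put the combination tumors in the same order, 20L, 22 and 28LL from low to high, and its part in these values was not tested.

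Gzmc, Gzmd, Gzme, Gzmf and Gzmg lie beside Gzmb on chromosome 14, and their sequences are close enough that reads may be split among them. Gzmc was at 141, 217 and 2216 CPM in combination tumors, against 0.917, 0.884 and 1.20 CPM in HBSS tumors (9.77 ± 1.47, SE), and had the smallest DESeq2 adjusted p of these genes (1.39e-23). Gzmd was at 52.3, 99.6 and 2881 CPM in combination tumors, against 2 reads in the 3 HBSS tumors together, and Gzmf was at 46.9, 72.3 and 1952 CPM in combination tumors, against 3 reads. These granzymes were nearly absent from HBSS tumors and present in every combination tumor, with tumor 28LL more than 10-fold above the other combination tumors. DESeq2 gave no p for Gzmd, Gzme, Gzmf and Gzmg, and edgeR without tumor 28LL called all of them and Gzmc higher. Ctsw, a protease of NK and CD8+ T cells named after its values were seen, was at 21.6, 57.6 and 113 CPM in combination tumors, against 8.84, 4.80 and 6.92 CPM in HBSS tumors (3.25 ± 0.62, SE).

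NK cell genes had the highest share of members without overlap of all immune lists, 30 of 33 tested genes, and DESeq2 called 29 of them higher. Their median log2 fold change was 3.53, and 2.34 without tumor 28LL, when edgeR still called 18 higher. Ncr1, the activating receptor NKp46 that defines NK cells, was added as a defining marker and was at 8.24, 20.7 and 68.4 CPM in combination tumors, against 2.49, 1.70 and 2.31 CPM in HBSS tumors (3.94 ± 0.80, SE). Klrb1c, the NK1.1 antigen of this strain, was at 10.6, 23.5 and 77.3 CPM in combination tumors, against 2.32, 1.92 and 1.77 CPM in HBSS tumors (4.24 ± 0.77, SE). The 2 genes showed the same order of tumors and no overlap, and edgeR without tumor 28LL called both (adjusted p = 0.029 and 0.0157). Klrg1, a receptor of terminally differentiated NK and effector T cells, was at 9.86, 29.2 and 182 CPM in combination tumors, against 0.769, 0.34 and 0.352 CPM in HBSS tumors (7.29 ± 1.32, SE). Klrd1, the CD94 chain of NKG2 receptors, was at 15.3, 30.5 and 75.3 CPM in combination tumors, against 4.08, 2.24 and 2.82 CPM in HBSS tumors (3.76 ± 0.64, SE). Cd96, an adhesion receptor of NK and T cells, had a log2 fold change of 3.69 ± 0.63 (SE). Tumor 28LL was more than 2-fold above tumor 22, and tumor 22 about 2-fold or more above tumor 20L, in each of these genes.

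T cell genes were also at higher levels, with a lower median than NK cell genes. Of 30 tested genes, 17 lay higher in every combination tumor and none lower, DESeq2 called 21 higher, and edgeR without tumor 28LL called 3. Their median was 1.88 on the log2 scale (1.45 without 28LL). Cd3e, a chain of the T cell receptor complex, was added as the defining marker and was at 6.08, 13.9 and 14.0 CPM in combination tumors, against 7.09, 4.09 and 5.69 CPM in HBSS tumors (1.03 ± 0.39, SE). Tumor 20L was inside the HBSS range, and the other 2 combination tumors were above it. Cd8b1, a chain of the CD8 coreceptor, was added after its values were seen and was at 6.84, 17.4 and 12.8 CPM in combination tumors, against 5.07, 3.00 and 2.77 CPM in HBSS tumors (1.80 ± 0.42, SE). Lck, the kinase that starts T cell receptor signaling and is also used by NK cells, was at 20.4, 53.7 and 103 CPM in combination tumors, against 12.2, 7.22 and 11.3 CPM in HBSS tumors (2.55 ± 0.59, SE). Trdc, the constant segment of the γδ T cell receptor, which NK cells can also transcribe, was at 3.80, 5.32 and 9.41 CPM in combination tumors, against 1.65, 1.37 and 1.57 CPM in HBSS tumors (2.04 ± 0.40, SE). Il7r, the interleukin-7 receptor of resting lymphocytes, was at 10.0, 4.93 and 17.9 CPM in combination tumors, against 1.98, 1.62 and 2.59 CPM in HBSS tumors, and here tumor 22 was the lowest combination tumor.

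Of 23 tested checkpoint and regulatory T cell genes, 9 lay higher in every combination tumor and DESeq2 called 9 higher and 0 lower. Cd274, the ligand PD-L1, was at 14.1, 28.0 and 139 CPM in combination tumors, against 9.31, 6.27 and 9.30 CPM in HBSS tumors (2.90 ± 0.86, SE). Arg1, which depletes arginine in myeloid cells, was at 72.5, 34.5 and 96.4 CPM in combination tumors, against 1.85, 6.29 and 9.24 CPM in HBSS tumors (3.58 ± 0.68, SE), and Nos2, the inducible nitric oxide synthase, was at 26.5, 18.4 and 82.5 CPM in combination tumors, against 8.82, 13.6 and 7.09 CPM in HBSS tumors (2.15 ± 0.62, SE). All combination tumors lay above all HBSS tumors in these genes, and PD-L1 in tumor 28LL was several times higher than in the other combination tumors. The receptors Pdcd1 and Lag3, added after their values were seen, had log2 fold changes of 1.11 ± 0.51 and 1.40 ± 0.68 (SE), were not called by either tool, and overlapped between the groups. The list median was 1.40, and 0.73 without tumor 28LL.

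**Figure D3:**
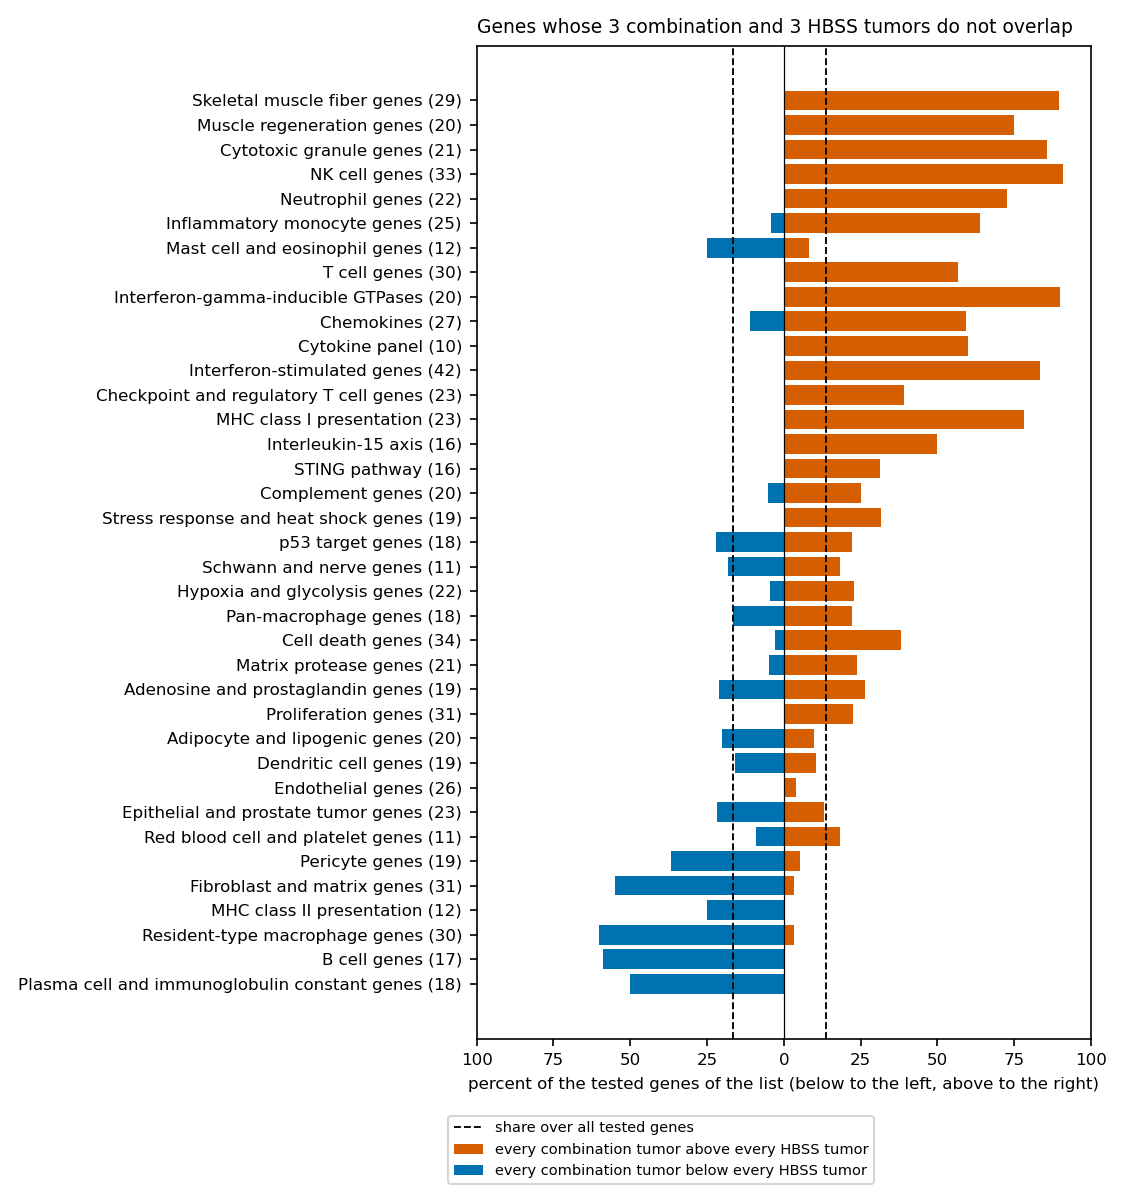
Percent of the tested genes of each list in which every combination tumor lies above (right) or below (left) every HBSS tumor, with dashed lines at the shares over all tested genes, 13.9% above and 16.4% below. NK cell, interferon-γ-inducible GTPase and muscle fiber genes reach farthest to the right, and resident-type macrophage, B cell and matrix genes farthest to the left.

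The myeloid lists split by kind. Of 22 tested neutrophil genes, 16 lay higher and 0 lower in all combination tumors, DESeq2 called 16 higher, and edgeR without tumor 28LL called 10. S100a8, a subunit of calprotectin and a defining marker, was at 5.15, 2.49 and 50.5 CPM in combination tumors, against 0.164, 0.231 and 0.231 CPM in HBSS tumors (6.55 ± 1.36, SE). Ly6g, the other defining marker, was too low to be tested and was at 0 in all HBSS tumors. Mmp8, the neutrophil collagenase, was at 5.20, 2.06 and 19.3 CPM in combination tumors, against 0.0982, 0.272 and 0.231 CPM in HBSS tumors (5.48 ± 1.01, SE). Trem1, which amplifies inflammatory signals, was at 5.84, 2.93 and 14.0 CPM in combination tumors, against 0.164, 0.612 and 0.286 CPM in HBSS tumors (4.45 ± 0.81, SE). Tumor 28LL was highest in each of these, and tumor 20L was above tumor 22. Trem3, which ranked first in the list by edgeR p, had the other order, at 1.52, 2.11 and 4.79 CPM in combination tumors, against 0.131, 0.285 and 0.198 CPM in HBSS tumors. The median of the list was 3.46, and 2.07 without tumor 28LL. Of 29 genes of the list, 22 passed the filter on low counts, which a gene near 0 in HBSS tumors can do through combination tumors. The counts and the median may therefore lean toward higher levels. In combination tumors the neutrophil list took up 0.105, 0.075 and 0.0908 percent of all counts. In HBSS tumors it took up 0.0797, 0.0781 and 0.0737 percent, and the groups overlapped in this share. Among 25 inflammatory monocyte genes, 16 lay higher and 1 lower, and DESeq2 called 16 higher and 1 lower. Ly6c2, the monocyte surface antigen Ly6C, was added after its values were seen and was at 50.6, 155 and 605 CPM in combination tumors, against 14.8, 6.46 and 15.2 CPM in HBSS tumors (4.50 ± 0.99, SE). F10, coagulation factor X, was at 11.8, 8.11 and 53.6 CPM in combination tumors, against 0.393, 0.598 and 0.385 CPM in HBSS tumors (5.77 ± 0.89, SE), and Plac8 was at 98.3, 154 and 518 CPM in combination tumors, against 27.0, 22.5 and 16.6 CPM in HBSS tumors (3.58 ± 0.68, SE). The monocyte list had a median of 3.15, and 1.72 without tumor 28LL. Its share of all counts ran the other way, at 0.7465, 0.67 and 0.5541 percent in combination tumors. In HBSS tumors the share was 0.7715, 0.8803 and 0.7406 percent. Tumors 22 and 28LL lay below the HBSS range and tumor 20L within it.

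Genes of resident-type macrophages were at lower levels. In 18 of 30 tested genes every combination tumor lay below every HBSS tumor, in 1 above, and DESeq2 called 14 lower and 0 higher. The median of -1.11 was -1.14 without tumor 28LL, and edgeR then called 13 lower. Cbr2, a carbonyl reductase of tissue macrophages, was at 3.49, 8.02 and 5.36 CPM in combination tumors, against 44.0, 38.8 and 66.5 CPM in HBSS tumors (-3.12 ± 0.37, SE). Cd163, the receptor that takes up hemoglobin bound to haptoglobin, was at 0.75, 1.28 and 2.02 CPM in combination tumors, against 7.87, 7.72 and 10.6 CPM in HBSS tumors (-2.66 ± 0.42, SE). Retnla, a secreted protein of macrophages under interleukin-4, was at 0, 0.0292 and 0.0138 CPM in combination tumors, against 0.638, 1.03 and 0.704 CPM in HBSS tumors. All 3 genes were several times lower in every combination tumor. Mrc1, the mannose receptor CD206, was named after its values were seen and was at 109, 125 and 172 CPM in combination tumors, against 283, 287 and 365 CPM in HBSS tumors (-1.18 ± 0.22, SE). F13a1, coagulation factor XIII, which stands in the monocyte list as well and was the monocyte gene called lower, was at 29.9, 21.4 and 54.2 CPM in combination tumors, against 119, 207 and 222 CPM in HBSS tumors (-2.34 ± 0.42, SE). Of 18 genes shared by most macrophages, 4 lay above and 3 below, with a median of 0.41 (0.10 without tumor 28LL). Csf1r, the receptor for macrophage colony-stimulating factor, was at 371, 491 and 454 CPM in combination tumors and 674, 553 and 644 CPM in HBSS tumors (-0.48 ± 0.16, SE), and was not called. Spp1, osteopontin, was the only gene of this list that DESeq2 called, at 406, 302 and 3253 CPM in combination tumors, against 59.6, 77.5 and 85.9 CPM in HBSS tumors (4.19 ± 1.02, SE).

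B cell and plasma cell genes were at lower levels in combination tumors. Of 18 tested plasma cell and immunoglobulin constant genes, 9 lay below every HBSS tumor in every combination tumor and none above, and DESeq2 called 10 lower, with a median log2 fold change of -2.31 (-2.30 without tumor 28LL). Jchain, which joins the subunits of polymeric IgM and IgA, was at 2.43, 5.61 and 1.49 CPM in combination tumors, against 61.1, 30.0 and 68.2 CPM in HBSS tumors (-4.05 ± 0.60, SE). Igkc, the constant segment of κ light chains, was at 10.6, 34.5 and 17.3 CPM in combination tumors, against 243, 129 and 268 CPM in HBSS tumors (-3.34 ± 0.52, SE). The lowest HBSS tumor, 22R, was above the highest combination tumor, 22, more than 3-fold in both genes. Of 17 B cell genes, 10 lay below and 0 above, and DESeq2 called 7 lower. Cd79a, a signaling chain of the B cell receptor, was at 0.559, 0.641 and 0.937 CPM in combination tumors, against 2.70, 3.19 and 2.23 CPM in HBSS tumors (-1.89 ± 0.34, SE), and Pou2af1, a coactivator of immunoglobulin transcription, was at 0.706, 1.28 and 0.661 CPM in combination tumors, against 3.49, 3.66 and 3.64 CPM in HBSS tumors (-2.00 ± 0.35, SE). Both were called by edgeR without tumor 28LL. Among 62 tested immunoglobulin variable segments, whose reads may be shared among near-identical copies, 32 lay below and 0 above, and DESeq2 called 28 lower. Only segments that passed the filter on low counts were taken. Some, such as Ighv1-80, were near 0 in combination tumors and passed through the reads of HBSS tumors. The counts and the median of these segments therefore lean toward lower levels and are no test of their direction. Ighv1-80 was at 0.132, 0.0146 and 0.0413 CPM in combination tumors, against 12.3, 5.15 and 4.65 CPM in HBSS tumors. Over the tested segments the median log2 fold change was -3.88, and -3.68 without tumor 28LL.

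The stroma differed by smaller amounts. Of 31 tested fibroblast and matrix genes, 17 lay lower in every combination tumor and 1 higher, although DESeq2 called only 6 lower and 1 higher, and the median log2 fold change was -0.69 (-0.57 without tumor 28LL). Col1a1, the α1 chain of type I collagen, was at 4998, 5072 and 3977 CPM in combination tumors, against 9551, 10440 and 8163 CPM in HBSS tumors (-0.98 ± 0.17, SE), just under the fold threshold. Adamts12, a secreted metalloprotease, was at 11.5, 11.1 and 13.0 CPM in combination tumors, against 24.6, 30.8 and 24.0 CPM in HBSS tumors (-1.13 ± 0.17, SE), and Igfbp6, which binds insulin-like growth factor 2, was at 62.4, 75.6 and 49.3 CPM in combination tumors, against 164, 139 and 126 CPM in HBSS tumors (-1.17 ± 0.19, SE). The combination tumors were alike in these genes and lay below every HBSS tumor. Thy1, the 1 gene of this list that lay higher, is also a T cell antigen and was at 83.6, 179 and 725 CPM in combination tumors, against 64.1, 43.3 and 54.7 CPM in HBSS tumors. It was added after its values were seen. Of 19 pericyte genes, 7 lay lower and DESeq2 called 5 lower. Rgs5, a regulator of G protein signaling that marks pericytes, was at 32.3, 30.1 and 66.0 CPM in combination tumors, against 129, 193 and 95.3 CPM in HBSS tumors (-1.67 ± 0.40, SE), and Notch3, a receptor of mural cells, was at 37.9, 29.2 and 49.7 CPM in combination tumors, against 70.8, 79.8 and 62.8 CPM in HBSS tumors (-0.84 ± 0.22, SE). Des, in the pericyte and muscle lists, ran the other way with the muscle genes. Few endothelial genes differed without overlap: 1 of 26 tested genes lay above and 0 below, the median was 0.18 (-0.16 without tumor 28LL), and only Ackr1 was called higher by DESeq2. Of 21 matrix protease genes, 5 lay higher, and Mmp12, the elastase of macrophages, was at 75.4, 5.57 and 82.5 CPM in combination tumors, against 1.06, 2.501 and 1.89 CPM in HBSS tumors (4.94 ± 1.04, SE), with tumor 22 far below the other 2 combination tumors.

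Genes of cell death, growth and stress were examined because the treatment was directed at tumor growth. Of 34 tested cell death genes, 13 lay higher and 1 lower in every combination tumor, with a median log2 fold change of 0.41 (0.30 without tumor 28LL), and the 4 that DESeq2 called were Xaf1, Zbp1, Bcl2a1a and Bcl2a1d. Bcl2a1a is a prosurvival relative of BCL2 in leukocytes with near-identical copies, at 7.02, 12.3 and 15.8 CPM in combination tumors, against 4.19, 3.73 and 3.54 CPM in HBSS tumors (1.65 ± 0.33, SE). Zbp1, the nucleic acid sensor that triggers necroptosis and an interferon-stimulated gene, was at 60.0, 95.1 and 255 CPM in combination tumors, against 30.7, 15.4 and 33.9 CPM in HBSS tumors (2.39 ± 0.61, SE). Of 18 p53 targets, 4 lay above and 4 below, beside 13.9% and 16.4% of all tested genes. Cdkn1a, the cell cycle inhibitor p21, was at 65.3, 74.1 and 190.5 CPM in combination tumors, against 22.2, 28.5 and 23.3 CPM in HBSS tumors (2.19 ± 0.44, SE), and edgeR without tumor 28LL called it (adjusted p = 0.00926). In contrast Sesn1 (-0.58 ± 0.13, SE), Zmat3 (-0.63 ± 0.17, SE) and Eda2r (-0.77 ± 0.21, SE) lay lower in every combination tumor, and the list median was 0.47 with tumor 28LL and -0.03 without it. Among proliferation genes, 7 of 31 lay higher in every combination tumor and 0 lower, and the median was 0.29 (0.48 without tumor 28LL). The mean log2(CPM + 0.5) level of the list was 6.74, 6.58 and 6.03 in combination tumors, against 6.19, 6.15 and 6.32 in HBSS tumors, so that tumor 28LL lay below every HBSS tumor and the other 2 above. Rrm2, a subunit of ribonucleotide reductase, was at 100.3, 99.3 and 103 CPM in combination tumors, against 61.9, 58.5 and 70.5 CPM in HBSS tumors (0.69 ± 0.13, SE), and Pcna, the clamp of DNA polymerase, was at 246, 244 and 206 CPM in combination tumors, against 157, 141 and 179 CPM in HBSS tumors (0.57 ± 0.15, SE). The differences were larger than the spread between tumors but under the fold threshold, and neither tool called a gene of the list. Ddit3, the stress factor CHOP, was at 42.7, 50.9 and 43.8 CPM in combination tumors, against 24.4, 33.4 and 24.5 CPM in HBSS tumors (0.77 ± 0.17, SE), and 6 of 19 stress response genes lay higher with 0 lower. Of 22 hypoxia and glycolysis genes, 5 lay higher, 1 lower, and Hilpda, a lipid droplet protein induced by hypoxia, was the only one that DESeq2 called (1.13 ± 0.29, SE).

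Skeletal muscle genes had the highest list median, 7.17 for 29 tested muscle fiber genes and 5.08 for 20 genes of muscle regeneration. Without tumor 28LL the medians were 5.00 and 3.58. Members near 0 in HBSS tumors, such as Mb and Myog, passed the filter on low counts through combination tumors. The counts and medians of both lists therefore lean toward higher levels and are no test of their direction. Acta1, the actin of skeletal muscle fibers, was at 20.6, 378 and 1922 CPM in combination tumors, against 0.507, 0.516 and 0.583 CPM in HBSS tumors (10.52 ± 1.87, SE). Ckm, the muscle creatine kinase, was added as a defining marker and was at 1.501, 51.6 and 241 CPM in combination tumors, against 0.0982, 0.109 and 0.165 CPM in HBSS tumors (9.61 ± 1.99, SE). Tumor 28LL was far above tumor 20L in both, while the HBSS tumors were all near 0. Mb, myoglobin, was at 2.49, 48.5 and 157 CPM in combination tumors, against 3 reads in the 3 HBSS tumors together. Myh3, the embryonic myosin heavy chain of regenerating fibers, was at 1.81, 2.11 and 7.08 CPM in combination tumors, against 0.0982, 0.136 and 0.099 CPM in HBSS tumors (5.06 ± 0.71, SE), and Myog, the transcription factor of muscle differentiation, was at 0.942, 3.19 and 10.3 CPM in combination tumors, against 2 reads in HBSS tumors. In these 2 regeneration genes tumor 20L was closer to tumor 22 than in the fiber genes. Without tumor 28LL, edgeR called 2 fiber genes and 9 regeneration genes higher.

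The remaining lists are described in brief. Of 20 complement genes, 5 lay higher and 1 lower, with Cfp, the properdin of myeloid cells, at 78.8, 76.1 and 214 CPM in combination tumors, against 29.4, 29.9 and 34.0 CPM in HBSS tumors (2.02 ± 0.44, SE), and Cd55, which protects cells from complement, at 5.75, 17.7 and 212 CPM in combination tumors, against 2.31, 1.65 and 1.65 CPM in HBSS tumors (5.43 ± 1.43, SE). Of 19 adenosine and prostaglandin genes, 5 lay higher and 4 lower. Ltb4r1, the leukotriene B4 receptor of neutrophils, was at 4.17, 7.36 and 48.8 CPM in combination tumors, against 0.655, 0.53 and 0.759 CPM in HBSS tumors (4.98 ± 1.06, SE). Of 23 epithelial and prostate tumor genes, 3 lay higher and 5 lower, shares near those of all tested genes. Cdh1, E-cadherin, was at 9.15, 11.5 and 22.99 CPM in combination tumors, against 3.98, 2.81 and 3.29 CPM in HBSS tumors (2.14 ± 0.40, SE), and was the only one of them that DESeq2 called. Without overlap between the groups, mast cell and eosinophil genes (1 of 12 above and 3 below), adipocyte genes (2 and 4 of 20), red blood cell and platelet genes (2 and 1 of 11), Schwann cell genes (2 and 2 of 11) and skin genes (2 and 0 of 6) were counted as well. The mast cell median was 1.90 with tumor 28LL and 0.19 without it. Of the 3 tested proliferin genes, hormones of the prolactin family with near-identical copies, 1 lay higher.

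**Figure D4:**
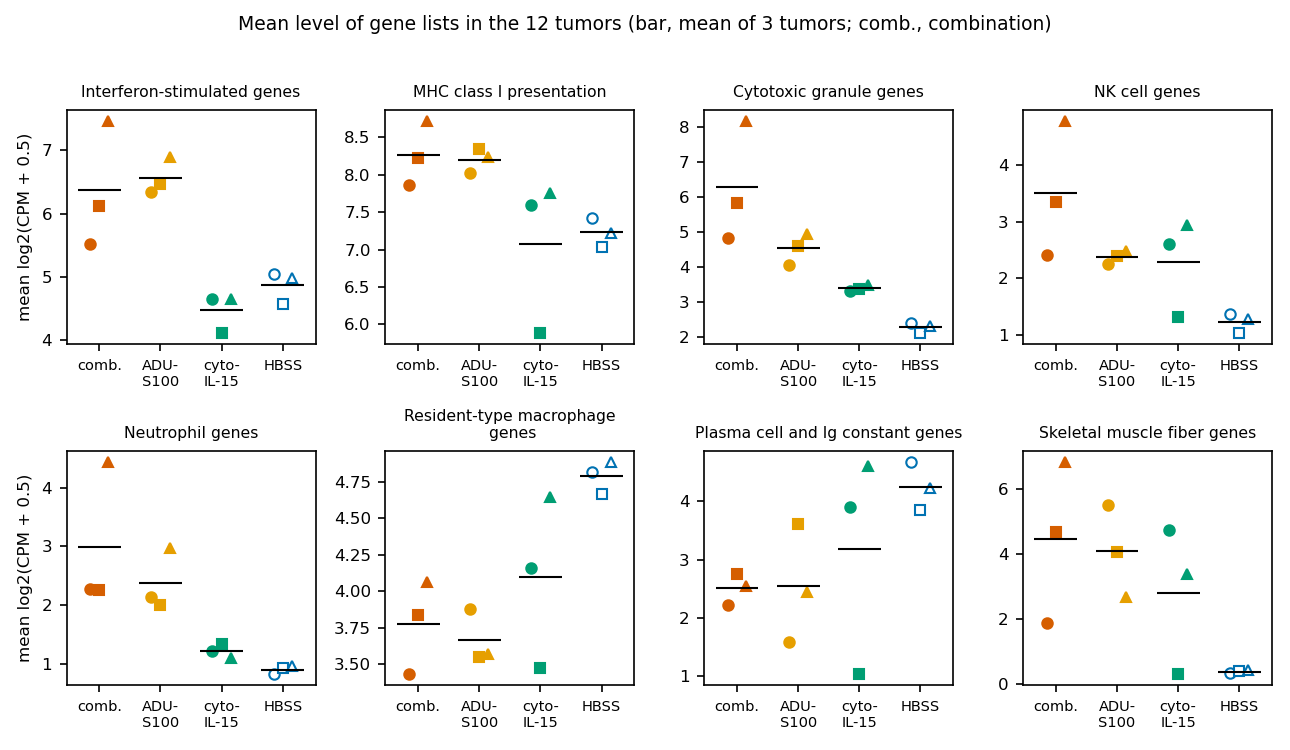
Mean log2(CPM + 0.5) of 8 gene lists in the 12 tumors, with combination and HBSS tumors at the outer places and the single agents between them, 1 point per tumor and a bar at the mean of 3. Combination tumor 28LL lies above all tumors of the single agents in the interferon-stimulated, MHC class I, granule and NK cell lists, and combination tumor 20L lies within or below the range of the ADU-S100 tumors in all 4.

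Against the single agents the combination was tested with edgeR on the 6 tumors of each pair. It called 0 of 18689 genes (0.0%) against ADU-S100 and 0 of 18619 genes (0.0%) against cyto-IL-15, with smallest adjusted p-values of 0.884 and 0.785, and 454 genes at higher and 348 at lower levels than in ADU-S100 tumors had an unadjusted p under 0.05 (582 and 344 against cyto-IL-15). These comparisons share the combination tumors with the comparison to HBSS. The median log2 fold change against ADU-S100 was 0.04 for interferon-stimulated genes and 0.13 for MHC class I genes, and 2.04 for granule genes and 1.57 for NK cell genes. Against cyto-IL-15 the medians were 2.16, 1.12, 2.25 and 1.43 for the same lists in that order. Cyto-IL-15 tumor 13 stood apart from 9R and 20LL in some lists. The mean log2(CPM + 0.5) level of MHC class I genes was 7.60, 5.88 and 7.75 in cyto-IL-15 tumors 9R, 13 and 20LL. In combination tumors it was 7.86, 8.23 and 8.72. The part of tumor 13 in these medians and in the spread was not tested. Tumor 28LL was the highest of these tumors in the granule and NK cell lists, and its part in the medians against the single agents was not tested. Tumor 22 also lay above every ADU-S100 tumor in both lists. The mean log2(CPM + 0.5) level of the granule list was 4.82, 5.82 and 8.19 in combination tumors, against 4.07, 4.61 and 4.94 in ADU-S100 tumors and 3.32, 3.38 and 3.48 in cyto-IL-15 tumors. For the NK cell list it was 2.40, 3.36 and 4.79 in combination tumors, against 2.25, 2.40 and 2.48 in ADU-S100 tumors and 2.61, 1.31 and 2.94 in cyto-IL-15 tumors. In both lists tumor 20L lay within the range of ADU-S100, and in the NK cell list it lay below cyto-IL-15 tumors 9R and 20LL. Gzma was at 87.5, 374 and 1618 CPM in combination tumors, against 35.2, 55.9 and 75.7 CPM in ADU-S100 tumors 17LL, 18R and 22LR and 18.6, 9.14 and 44.8 CPM in cyto-IL-15 tumors 9R, 13 and 20LL. Its log2 fold change was 3.65 against ADU-S100 (edgeR adjusted p = 0.884) and 4.87 against cyto-IL-15 (edgeR adjusted p = 0.785), and all combination tumors lay above all tumors of both single agents. Cxcl11 was at 6.89, 10.8 and 15.7 CPM in combination tumors, against 9.04, 12.6 and 12.7 CPM in ADU-S100 tumors and 1.90, 0.113 and 0.897 CPM in cyto-IL-15 tumors. The combination tumors spread over and beyond the range of ADU-S100 and lay above cyto-IL-15. Zbtb20 was at 45.0, 47.5 and 42.1 CPM in combination tumors, against 72.2, 69.7 and 93.5 CPM in ADU-S100 tumors and 75.8, 65.8 and 71.7 CPM in cyto-IL-15 tumors, below every tumor of both agents (log2 fold change -0.80 against ADU-S100 and -0.66 against cyto-IL-15, edgeR adjusted p = 0.884 and 0.785). None of these differences held after adjustment over all genes.

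**Figure D5:**
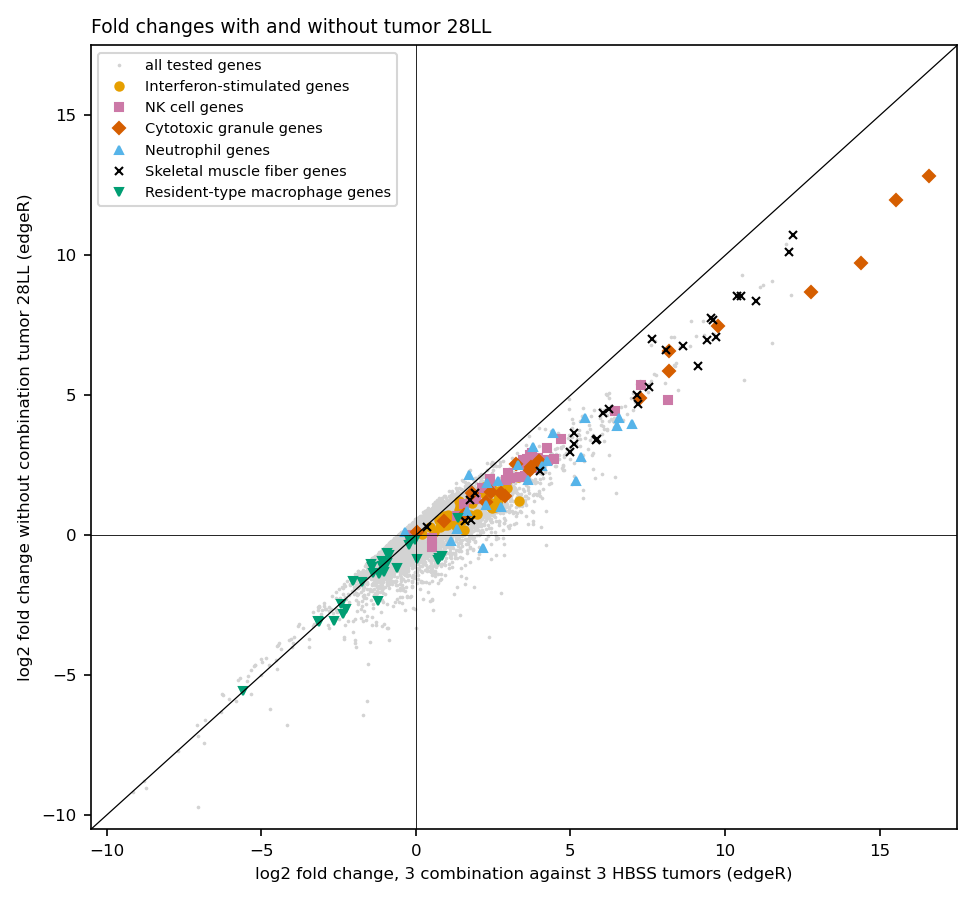
Log2 fold change of each tested gene by edgeR with all 3 combination tumors (horizontal axis) and without tumor 28LL (vertical axis), with 6 lists in color and the line of equal values. Most granule, NK cell, neutrophil and muscle genes fall below the line at the upper right, and resident-type macrophage genes stay close to it at the lower left.

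How far a difference rested on tumor 28LL varied between lists and genes. The log2 fold change of Acta1 was 10.52 with all combination tumors and 8.54 without 28LL, that of Gzmb was 8.19 and 5.88, and that of Prf1 was 7.26 and 4.92. H2-K1 moved little, with 1.47 and 1.27, and so did Cxcl11, with 3.10 and 2.76. Among the genes at lower levels, Cbr2 was at -3.12 with 28LL and -3.10 without it, Jchain at -4.05 and -3.71, and Zbtb20 at -1.08 and -1.04. Of these, the granule and muscle genes had smaller fold changes without tumor 28LL, and Cbr2 and Zbtb20 nearly the same.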

How the data were processed

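RNA of TRAMP-C2 tumor tissue was sequenced in 12 samples, of which the 3 combination and 3 HBSS tumors were compared. The authors deposited raw read counts per Ensembl gene, 1 file per tumor. Per the submitters' processing notes these came from bcl2fastq 2.20, Trimmomatic 0.36, STAR 2.5.2b and featureCounts of Subread 1.5.2 on GRCm38 (mm10), followed by DESeq2. The strand setting and the handling of reads that map to several places were not given in the sources used here, so reads of overlapping, antisense and near-identical genes cannot be told apart. Gene lengths in the files were used for nothing, as levels were not compared between genes. The 49315 identifiers were given symbols from the reference annotation (48970 matched a symbol and 49056 GENCODE M21).

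Counts were tested with edgeR 4.0.16 in R 4.3.3 (trimmed-mean scaling, filterByExpr with a minimum count of 10 and a minimum total of 15, robust quasi-likelihood test) and Benjamini-Hochberg adjustment over all tested genes, and SE is the log2 fold change divided by the root of F. DESeq2 1.42.0, limma 3.58.1 and other scalings, filters and left-out tumors were alternatives, and the analysis was tested on simulated data. Named genes were the 15 with the smallest edgeR p in each direction and the 10 with the largest DESeq2 fold changes in each direction (mean of at least 1 CPM), up to 5 genes of each list by edgeR p, the cytokine panel, Il15, Il15ra and the genes named in the study's RNA results. Others are marked as added after their values were seen or as defining markers. The members and lists were chosen with earlier results of these data known. Promoters are from RefSeq (GRCm38.p6). The result of 1 further defining marker of the tumor line is not reported here, for a reason unrelated to its values.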

Additional observations from a re-analysis of the deposited data

How the results depend on the processing

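How many genes were called depended on the test. It was 0 with the quasi-likelihood test of edgeR, where 3374 genes had an unadjusted p under 0.05, and stayed 0 with RLE or upper-quartile scaling, without robust estimation, without the muscle lists, with no fold threshold, with all 12 tumors in the fit (smallest adjusted p 0.0501) and with limma voom (smallest adjusted p 0.0918). It was 1156 with DESeq2 on the 6 tumors, 1065 with DESeq2 on all 12 tumors, 891 with the likelihood ratio test of edgeR, 923 with limma voom and a quality weight per tumor, and 14 of 38157 genes with edgeR and no filter on low counts. Leaving out 1 tumor at a time gave 0 to 247 genes with edgeR, where 247 came without combination tumor 28LL, and 637 to 2193 genes with DESeq2, an alternative chosen after seeing the data, where 2193 came without combination tumor 20L, 1176 without combination tumor 22, 823 (549 higher and 274 lower) without 28LL, and 738, 637 and 700 without HBSS tumor 19, 22R and 22LL in turn. The cause was not tested.

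Genes with every combination tumor above every HBSS tumor numbered 2578, and 3048 lay below. The counts were 2787 and 2844 with RLE scaling, 2353 and 3115 with upper-quartile scaling, 3559 and 3700 of 38157 genes with no filter, and 3770 and 4128 with tumors 20L and 22 only, chosen after seeing the data. Medians of 40 gene lists were compared with the spread (SD) of the list mean over the 3 combination tumors. They moved by more than it in 46 recomputed values and by less in 872. Tumor 28LL itself widens that spread. The muscle fiber median, 7.17 with 28LL and 5.00 without it, thus counts among the 872, which is no measure of robustness to that tumor. Signs differed between alternatives for the lists of adipocyte (-0.34 to 0.86), dendritic cell (-0.31 to 0.33), endothelial (-0.17 to 0.36), red blood cell and platelet (-0.96 to 0.26), Schwann cell (-0.38 to 0.57) and p53 target genes (-0.04 to 0.57), in log2 fold change. The 3 named genes Ifngr2, Hba-a1 and Il12b changed sign, and none of them was called under any alternative. With edgeR, leaving out 1 tumor at a time gave -0.028 (without 28LL) to 0.29 for Ifngr2, -1.14 to 0.042 (without HBSS 22R) for the hemoglobin chain Hba-a1, and -0.40 to 0.18 (without HBSS 22LL, and 0.18 without 20L) for Il12b. With DESeq2 the values of the other sign were -0.037 for Ifngr2, 0.038 for Hba-a1 and 0.17 and 0.18 for Il12b, and quality weights gave 0.040 for Il12b. No paired analysis was possible because the labels give no replicate numbers: those used here follow the order of the samples and only name them, and the tumor titles are not said to mark pairs. With 3 tumors a group and 1 tumor apart, a gene that was not called is not shown to be alike in both groups.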

Other observations

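A few genes stood out in single tumors of either group. Krt14, a keratin of basal epidermis that was too low to be tested, was at 0.0147, 0 and 4.67 CPM in combination tumors 20L, 22 and 28LL, against 0.115, 0.0136 and 126 CPM in HBSS tumors 19, 22R and 22LL. Krt8 was likewise highest in HBSS tumor 22LL, at 145 CPM. Yap1, the transcriptional coactivator of the Hippo pathway, was at 125, 97.6 and 1144 CPM in combination tumors, against 130, 145 and 5079 CPM in HBSS tumors. The 2 tumors with high Yap1, combination 28LL and HBSS 22LL, belonged to different groups, and the other 4 tumors lay within a narrow range. These genes were chosen after their values were seen.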
